A study of Rattus norvegicus with 13 samples.

Results

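The Nr4a receptors and the immediate early genes listed with them were followed across rat islets that had received 1 of 2 beta-cell transcription factors or a control protein. The set held 10 genes, Nr4a1, Nr4a2, Nr4a3, Fos, Fosb, Junb, Egr1, Crem, Pde4b and Areg. Members were found by gene symbol, current or older, and 9 of the 10 had a probe among the 12761 genes named on the array. Fos had none. The 9 genes had 11 probes, since Crem and Pde4b had 2 each, and 8 of the 11 probes held a value on all 13 arrays.

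Nr4a1 (Nur77), Nr4a2 (Nurr1) and Nr4a3 (Nor1) are orphan nuclear receptors that are controlled mainly through their own transcription. Together with Fos, Fosb, Junb and Egr1 they belong to the immediate early genes, which are switched on without new protein synthesis by calcium, cAMP and growth factor signals, often through CREB or serum response factor, and whose transcripts decay again within hours. In beta cells, glucose and cAMP induce several of them, and Nr4a1 and Nr4a3 have been proposed as mediators of the proliferation that Nkx6.1 drives.

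The islets came from male Sprague-Dawley rats of about 250 g, with about 200 islets per array. The arrays of a group were separate islet isolations. Whether arrays of different groups shared an isolation is not given in the sample labels. The groups were islets given AdCMV-Nkx6.1 (hamster Nkx6.1, 5 arrays), AdCMV-Pdx1 (mouse Pdx1, 3 arrays) or AdCMV-bGAL (beta-galactosidase, the control, 5 arrays), and they are called Nkx6.1, Pdx1 and bGAL here. Every group received an adenovirus for 18 h and was cultured for 60 h after its removal in medium with 8 mM glucose and 10% fetal calf serum, so no group was free of virus. The viral CMV promoter is not restricted to beta cells, and RNA was taken from whole islets at a single time, so fewer cells of a type and less RNA per cell cannot be told apart. A value is the log2 ratio of the islet signal over that of a rat reference RNA pool on the same array. A value of 0 means equal signal, and ratios of different probes are not comparable as levels.

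The arrays differed in ways that the groups only partly followed. Between 35.4% and 61.1% of probes had no value on bGAL 1, 2, 3 and 5 and Nkx6.1 1, against 0.23% to 15.5% on the other 8 arrays, which held Nkx6.1 2 to 5, all 3 Pdx1 arrays and bGAL 4. Nkx6.1 2 stood apart from the rest, with correlations of 0.557 to 0.725 with the other arrays. Insulin (Ins1) and glucagon (Gcg) were far above the reference on every array, at 3.48 to 7.49 and 5.29 to 8.24, and albumin (Alb) was far below it, at -5.44 to -3.70. The rat Nkx6-1 probe averaged 3.19 in Nkx6.1 islets and 3.72 in bGAL islets. Whether it reads the hamster transcript is not given in the sources used here, so it does not check the labels.

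The promoters of the members that carried one of 2 motifs of CREB and AP-1 family factors are shown first. Signals of cAMP and calcium can act on genes through such elements. Each sequence is the 250 bases before an annotated transcription start, 5′ to 3′ on the gene's strand, from RefSeq on the GRCr8 build, with the motif in capitals.
Nr4a1: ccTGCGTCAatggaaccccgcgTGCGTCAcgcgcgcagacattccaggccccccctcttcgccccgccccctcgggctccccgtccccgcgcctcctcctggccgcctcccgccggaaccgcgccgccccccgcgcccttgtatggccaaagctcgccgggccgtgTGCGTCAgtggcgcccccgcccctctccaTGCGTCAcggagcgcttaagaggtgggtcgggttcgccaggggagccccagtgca
Areg: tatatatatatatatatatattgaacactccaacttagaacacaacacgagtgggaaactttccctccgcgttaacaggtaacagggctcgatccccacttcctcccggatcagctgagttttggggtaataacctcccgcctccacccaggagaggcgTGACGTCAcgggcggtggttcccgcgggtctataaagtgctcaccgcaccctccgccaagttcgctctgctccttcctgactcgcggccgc
Crem, first window: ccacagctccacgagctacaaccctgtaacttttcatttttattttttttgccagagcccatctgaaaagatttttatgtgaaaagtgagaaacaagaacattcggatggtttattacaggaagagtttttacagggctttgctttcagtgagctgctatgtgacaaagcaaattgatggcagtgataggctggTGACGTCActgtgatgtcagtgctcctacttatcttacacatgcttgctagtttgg
Crem, next window: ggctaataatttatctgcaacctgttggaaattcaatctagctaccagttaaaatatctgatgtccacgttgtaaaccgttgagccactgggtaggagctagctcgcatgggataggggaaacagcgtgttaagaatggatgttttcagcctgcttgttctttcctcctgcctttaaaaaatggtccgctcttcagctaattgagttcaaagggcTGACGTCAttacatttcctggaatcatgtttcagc
RefSeq promoters were matched for 8 members, with 11 windows between them, and the windows were searched on both strands for the palindromic cAMP response element TGACGTCA and for the related TGCGTCA, whose reverse complement is TGACGCA. The Nr4a1 window, at chr7:134259888-134260137 on the plus strand, held TGCGTCA 4 times, with first bases 248, 228, 84 and 55 bases before the start. Of 33469 rat promoter windows of this length, 1.66% held this motif at all and 1 held it 4 or more times, the Nr4a1 window itself. Areg, at chr14:17265642-17265891 on the minus strand, held TGACGTCA once, 91 bases before the start. Crem held TGACGTCA once in each of 2 windows on the plus strand, at chr17:58984547-58984796 and chr17:58985240-58985489, starting 56 and 35 bases before the start. That motif was in 1.59% of all windows. Neither motif was in the windows of Nr4a2, Fosb, Junb, Egr1 or Pde4b, nor in another Crem window. These matches describe letters and show no binding.

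None of the 10 member probes that could be tested passed the threshold in any comparison, an adjusted p of 0.05 from limma over 17965 probes. Against bGAL, 0 of 10 passed in Nkx6.1 islets, where 0.640% of all probes did, and 0 of 10 passed in Pdx1 islets, where 0.546% did. Between Nkx6.1 and Pdx1 islets 0 of 10 passed, against 0.217% of all probes. At an unadjusted p of 0.05, 4 member probes passed for Nkx6.1 against bGAL (Nr4a1, Egr1, Pde4b and Areg), where 14.4% of all probes did, 2 for Pdx1 against bGAL (Crem and Areg, background 11.9%) and 1 for Nkx6.1 against Pdx1 (Pde4b, background 6.85%). With estimated array weights limma passed 3, 2 and 1 member probes, where 1068, 1673 and 636 of all 17965 probes passed. With a variance trend and robust estimation it passed 1 member probe for Nkx6.1 against bGAL, where 66 of all probes passed. A p that misses the threshold does not show that 2 groups are alike. The median member difference was 0.46, 0.14 and 0.32 in the 3 comparisons, beside -0.08, -0.10 and 0.02 over all probes tested.

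**Figure D1:**
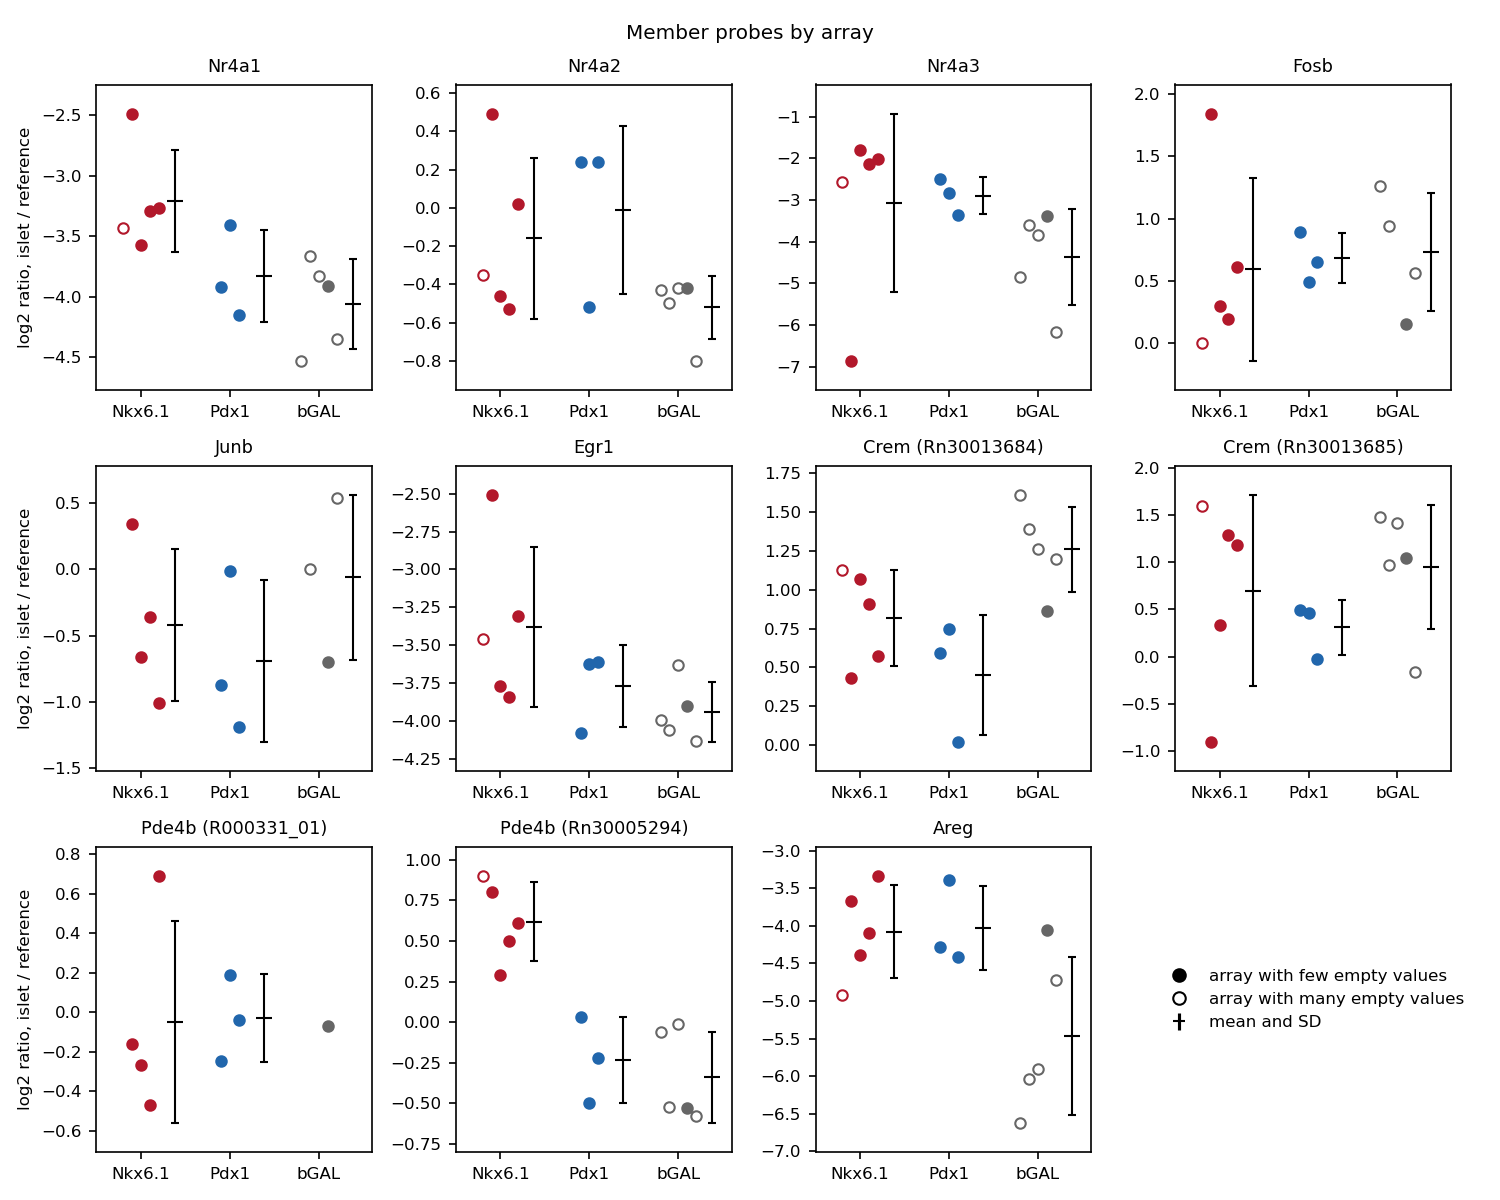
Log2 ratio of islet over reference signal for the 11 member probes on each array, with Nkx6.1, Pdx1 and bGAL islets side by side in every panel, replicates in order of number, and the mean and SD at the right of each group. Filled points are arrays with few empty values and open points are arrays with many, and Nr4a1 and Pde4b (Rn30005294) are the panels in which all 5 Nkx6.1 points lie above all 5 bGAL points.

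Nr4a1 was the Nr4a receptor whose Nkx6.1 and bGAL arrays did not overlap, though its difference missed the threshold. Its ratios on Nkx6.1 arrays 1 to 5 were -3.43, -2.49, -3.57, -3.29 and -3.27, those on Pdx1 arrays 1 to 3 were -3.92, -3.41 and -4.15, and those on bGAL arrays 1 to 5 were -4.53, -3.66, -3.83, -3.91 and -4.35. The lowest Nkx6.1 array exceeded the highest bGAL array, while the Pdx1 arrays fell among both, and signal was below the reference pool everywhere. Separation of this kind, in this direction, was seen in 3.25% of all probes, and 2 of the 10 member probes showed it. The mean was -3.21 ± 0.421 in Nkx6.1 islets and -4.06 ± 0.369 in bGAL islets (SD, n = 5 each), a difference of 0.85 (SE 0.259, 95% interval 0.29 to 1.41), or 1.80-fold. With limma the unadjusted p was 0.00597 and the adjusted p was 0.171, and 4.75% of all probes had a difference at least this far above 0.

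The Nr4a1 difference held its direction in all 27 alternatives but not its size. Some of them could not move it, such as leaving out a Pdx1 array or modelling the variance otherwise. With array set fitted as a block it was 0.71, and it was 0.75 among arrays with few empty values and 0.67 among those with many. Each of those sets held a group of 1 array, bGAL 4 in the first and Nkx6.1 1 in the second. The block value is the mean of the within-set values, so it rests on the same single arrays. Block values of other genes against bGAL lean likewise on bGAL 4, and on Nkx6.1 1 where it has a value. Without Nkx6.1 2, the highest array, the Nr4a1 difference was 0.67. After quantile normalization it was 0.32, and after scaling every array to one spread it was 0.17. Over the alternatives the adjusted p lay between 0.113 and 0.990. Against Pdx1 islets, whose mean was -3.83 ± 0.378 (SD, n = 3), Nr4a1 was 0.62 higher in Nkx6.1 islets (SE 0.299, 95% interval -0.03 to 1.26, limma adjusted p 0.728). Pdx1 islets differed from bGAL islets by 0.23 (SE 0.299, adjusted p 0.839), which ran from 0.02 to 0.39 on leaving out an array and became -0.57 after quantile normalization and -1.24 after scaling to one spread. In the order Nkx6.1, Pdx1, bGAL, neither pair of neighbours was told apart by the test.

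Nr4a3, the third receptor of the family, gave the widest spread. Nkx6.1 arrays 1 to 5 read -2.57, -6.86, -1.79, -2.13 and -2.02, Pdx1 arrays 1 to 3 read -2.49, -2.83 and -3.37, and bGAL arrays 1 to 5 read -4.85, -3.59, -3.84, -3.38 and -6.17. Of the Nkx6.1 arrays, 4 lay above every bGAL array and Nkx6.1 2 lay below every array of the study. All 3 Pdx1 arrays lay above every bGAL array, a separation that 8.02% of all probes showed in that direction. Within groups the pooled SD of the probe was 1.55, wider than that of 97.9% of probes tested. Its bGAL mean was among the lowest ratios, with 0.774% of probes tested lower, beside 1.12% for Nr4a1, 1.29% for Egr1 and 0.106% for Areg. Whether their islet signal was near the detection limit was not tested.

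The means of Nr4a3 were -3.07 ± 2.13 in Nkx6.1 islets (SD, n = 5), -2.90 ± 0.446 in Pdx1 islets (n = 3) and -4.37 ± 1.16 in bGAL islets (n = 5). Nkx6.1 minus bGAL was 1.29 (SE 0.866, 95% interval -0.58 to 3.16, limma adjusted p 0.504), and Pdx1 minus bGAL was 1.47 (SE 1.00, interval -0.69 to 3.63, adjusted p 0.626). Single arrays moved the first value widely, to 0.84 without bGAL 5, the lowest bGAL array. Without Nkx6.1 2 it was 2.24 (SE 0.497, adjusted p 0.0534), and with array weights, which estimate how far each array can be trusted, it was 2.03 and passed with an adjusted p of 0.0214. Over all alternatives the value ran from 0.18, among arrays with few empty values, to 2.24, and the adjusted p from 0.0214 to 0.998. The Pdx1 value ran from 0.14, with arrays scaled to one spread, to 1.71. Nkx6.1 minus Pdx1 was -0.18 (SE 1.00, adjusted p 0.969) and 0.77 without Nkx6.1 2.

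Nr4a2 lay close to the reference pool and close together in bGAL islets. It read -0.35, 0.49, -0.46, -0.53 and 0.02 on Nkx6.1 arrays 1 to 5, 0.24, -0.52 and 0.24 on Pdx1 arrays 1 to 3, and -0.43, -0.50, -0.42, -0.42 and -0.80 on bGAL arrays 1 to 5. Nkx6.1 2 and 5 and Pdx1 1 and 3 were the arrays above 0, and the remaining arrays of both factors were within the bGAL range or just above it. The difference was 0.35 for Nkx6.1 minus bGAL (SE 0.239, 95% interval -0.17 to 0.87, limma adjusted p 0.511) and 0.50 for Pdx1 minus bGAL (SE 0.276, interval -0.09 to 1.10, adjusted p 0.517). Both kept their sign in every alternative, but leaving out 1 array gave 0.19 (without Nkx6.1 2) to 0.44 for the first and 0.37 to 0.76 (without Pdx1 2) for the second. Nkx6.1 minus Pdx1 was -0.15 (SE 0.276, adjusted p 0.883).

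The 3 receptors correlated weakly with each other across arrays. Over the 13 arrays, which share the reference pool and hold both factors and the control, Nr4a1 correlated with Nr4a2 at r = 0.409 and with Nr4a3 at 0.0415, and Nr4a2 with Nr4a3 at -0.106. Among member probes with a value on every array, Egr1 followed Nr4a1 most closely (r = 0.798), ahead of Pde4b Rn30005294 (0.646) and Areg (0.575). Fosb, Junb and Pde4b R000331_01 had empty values and were not compared. The Crem probe Rn30013684 ran against Nr4a2 (r = -0.754). Of 6058 probes with 1 gene symbol and a value on every array, those most like Nr4a1 belonged to Slc35d1 (r = 0.927), Slc12a4 (0.917) and Ehd4 (0.915). Those most like Nr4a2 belonged to Shank1 (0.951), Krt13 (0.939) and Sorbs3 (0.915), and those most like Nr4a3 to Kif2c (0.925), Ptprg (0.910) and Slc20a1 (0.902). These r values are descriptions, taken as the highest of many, and Nkx6.1 2 is an extreme array for each receptor.

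**Figure D2:**
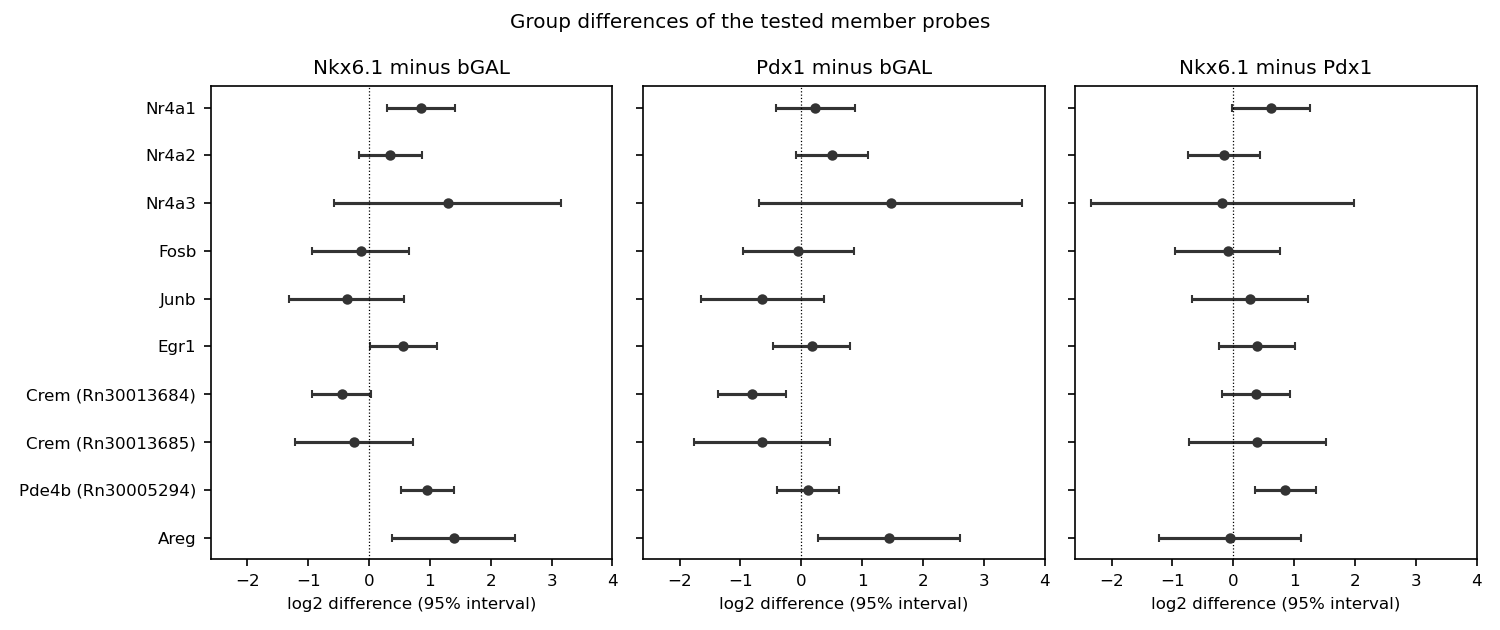
Log2 difference between groups for the 10 member probes tested, with its 95% interval from limma, for Nkx6.1 minus bGAL, Pdx1 minus bGAL and Nkx6.1 minus Pdx1. The interval of Nr4a1, at 0.29 to 1.41, lies above 0 in the first panel, while that of Nr4a3, at -0.58 to 3.16, is the widest there.

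Egr1, a zinc finger factor that growth factor and calcium signals induce, came next among the transcription factors. It read -3.46, -2.51, -3.77, -3.84 and -3.31 on Nkx6.1 arrays 1 to 5, -4.08, -3.62 and -3.61 on Pdx1 arrays 1 to 3, and -3.99, -4.06, -3.63, -3.90 and -4.13 on bGAL arrays 1 to 5. Nkx6.1 1, 2 and 5 lay above every bGAL array, Nkx6.1 3 and 4 lay inside the bGAL range, and Nkx6.1 2 was again the highest. The mean was -3.38 ± 0.529 in Nkx6.1 islets and -3.94 ± 0.196 in bGAL islets (SD, n = 5 each), a difference of 0.56 (SE 0.252, 95% interval 0.02 to 1.11, limma adjusted p 0.326). It was 0.35 without Nkx6.1 2 and 0.05 after quantile normalization, and turned to -0.12 with arrays scaled to one spread. Pdx1 islets averaged -3.77 ± 0.270 (SD, n = 3), which is 0.17 above bGAL (SE 0.291, adjusted p 0.891), but -0.61 after quantile normalization and -1.27 with one spread.

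Fosb and Junb, which pair as subunits of the AP-1 dimer, had differences from bGAL that changed sign between alternatives. Fosb read 0.00, 1.84, 0.30, 0.19 and 0.61 on Nkx6.1 arrays 1 to 5, 0.89, 0.49 and 0.65 on Pdx1 arrays 1 to 3, and 1.26, 0.94, 0.15 and 0.56 on bGAL 1, 2, 4 and 5, with bGAL 3 empty. The groups overlapped throughout, with Nkx6.1 2 highest and Nkx6.1 1 lowest. Nkx6.1 minus bGAL was -0.14 (SE 0.365, 95% interval -0.93 to 0.66, limma adjusted p 0.873) and Pdx1 minus bGAL was -0.05 (SE 0.416, adjusted p 0.981). Among arrays with few empty values both turned positive, at 0.58 and 0.53.

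Junb was empty on 3 arrays. It read 0.34, -0.66, -0.36 and -1.01 on Nkx6.1 2 to 5, -0.87, -0.01 and -1.19 on Pdx1 1 to 3, and 0.00, -0.70 and 0.54 on bGAL 2, 4 and 5. The groups overlapped, and the lowest arrays belonged to Pdx1 3 and Nkx6.1 5. Nkx6.1 minus bGAL was -0.37 (SE 0.427, 95% interval -1.32 to 0.58, limma adjusted p 0.704), or 0.28 once array set was fitted as a block. Pdx1 minus bGAL was -0.64 (SE 0.456, interval -1.65 to 0.38, adjusted p 0.659), and 0.01 with that block. Nkx6.1 minus Pdx1 was 0.27 (SE 0.427, adjusted p 0.868) and kept its sign in all 25 alternatives, between 0.02 and 0.61.

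Pde4b, a cAMP phosphodiesterase whose own transcription cAMP induces, came nearest to the threshold. Its probe Rn30005294 read 0.90, 0.80, 0.29, 0.50 and 0.61 on Nkx6.1 arrays 1 to 5, 0.03, -0.50 and -0.22 on Pdx1 arrays 1 to 3, and -0.06, -0.52, -0.01, -0.53 and -0.58 on bGAL arrays 1 to 5. Every Nkx6.1 array was above 0 and above every array of the other groups, and Pdx1 2 and 3 lay inside the bGAL range, with Pdx1 1 just above it. The means were 0.62 ± 0.243 in Nkx6.1 islets (SD, n = 5), -0.23 ± 0.265 in Pdx1 islets (n = 3) and -0.34 ± 0.279 in bGAL islets (n = 5). The spread within groups was small, at an SD of 0.263 against a median of 0.520 over all probes tested.

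Nkx6.1 minus bGAL for Pde4b was 0.96 (SE 0.203, 95% interval 0.52 to 1.40), or 1.95-fold, and by limma the unadjusted p was 3.76e-04 and the adjusted p 0.0549. It ranked 123 by p among 17965 probes. The value stayed between 0.82 and 1.20 in all 27 alternatives, including 1.14 with array set as a block, 1.08 within arrays with few empty values and 1.20 within those with many. The block value is the mean of the within-set values, each with a single array in a group, so these are not separate results. The adjusted p ran from 0.0252 to 0.867 and was under 0.05 in 6 of the 27, among them array weights (0.0252), the fit without Nkx6.1 2 (0.0445) and the fit without bGAL 4 (0.0390). Nkx6.1 minus Pdx1 was 0.85 (SE 0.235, interval 0.35 to 1.36, 1.81-fold, adjusted p 0.298), with the groups apart, as those of 12.1% of all probes were in either direction. Pdx1 minus bGAL was 0.11 (SE 0.235, interval -0.40 to 0.62, adjusted p 0.920).

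The other Pde4b probe, R000331_01, was empty on 4 bGAL arrays and on Nkx6.1 1 and was not tested. It read -0.16, -0.27, -0.47 and 0.69 on Nkx6.1 2 to 5, -0.25, 0.19 and -0.04 on Pdx1 1 to 3, and -0.07 on bGAL 4. Only 1 of the 4 Nkx6.1 values lay above that bGAL value, so the probes disagreed on the same arrays. Which Pde4b transcripts each probe reads is not given in the sources used here.

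Crem encodes activators and repressors of cAMP response elements, and an internal promoter gives the inducible repressor ICER. Both probes of Crem averaged lower in the factor groups, as those of Fosb and Junb did. Rn30013684 read 1.13, 0.43, 1.07, 0.91 and 0.57 on Nkx6.1 arrays 1 to 5, 0.59, 0.75 and 0.02 on Pdx1 arrays 1 to 3, and 1.61, 1.39, 1.26, 0.86 and 1.20 on bGAL arrays 1 to 5. All 3 Pdx1 arrays lay below every bGAL array, as 11.5% of all probes did, and Nkx6.1 2 and 5 did so too. The lowest bGAL array, bGAL 4, was also the one with few empty values.

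For this Crem probe Pdx1 minus bGAL was -0.81 (SE 0.259, 95% interval -1.37 to -0.25), or 1.75-fold lower, with a limma adjusted p of 0.232 and an unadjusted p of 0.00792. It kept its sign in all 26 alternatives, between -0.96 and -0.40, and -0.45 was its value once array set was a block. With array weights the adjusted p was 0.0233, in a range of 0.0233 to 1.00. Nkx6.1 minus bGAL was -0.44 (SE 0.224, interval -0.93 to 0.04, adjusted p 0.384). The other Crem probe, Rn30013685, was looser, with a pooled SD of 0.775 against 0.314. It gave -0.25 for Nkx6.1 (SE 0.451, adjusted p 0.812), 0.15 without Nkx6.1 2, and -0.64 for Pdx1 (SE 0.521, adjusted p 0.702).

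Areg encodes amphiregulin, a ligand of the EGF receptor whose transcription cAMP induces. It read -4.92, -3.67, -4.39, -4.10 and -3.34 on Nkx6.1 arrays 1 to 5, -4.28, -3.39 and -4.41 on Pdx1 arrays 1 to 3, and -6.62, -6.04, -5.91, -4.06 and -4.72 on bGAL arrays 1 to 5. The lowest arrays were bGAL 1, 2 and 3. Of the other bGAL arrays, bGAL 4, with few empty values, sat among the Nkx6.1 and Pdx1 arrays, and bGAL 5, with many, lay just above Nkx6.1 1.

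Areg averaged -4.08 ± 0.617 in Nkx6.1 islets (SD, n = 5), -4.03 ± 0.559 in Pdx1 islets (n = 3) and -5.47 ± 1.05 in bGAL islets (n = 5). Nkx6.1 minus bGAL was 1.39 (SE 0.468, 95% interval 0.38 to 2.40), or 2.62-fold, with a limma adjusted p of 0.200, and Pdx1 minus bGAL was 1.44 (SE 0.541, interval 0.28 to 2.61), or 2.72-fold, with an adjusted p of 0.306. Within arrays with few empty values the differences were 0.19 and 0.03. With array set as a block they were 0.55 and 0.32. Without bGAL 4 the Nkx6.1 difference was 1.74 and passed (adjusted p 0.0379, in a range of 0.0379 to 0.990), while with one spread per array the Pdx1 difference was -0.34. Nkx6.1 minus Pdx1 was -0.05 (SE 0.541, interval -1.22 to 1.11, adjusted p 0.984). Both differences from bGAL rest on the same 5 bGAL arrays.

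**Figure D3:**
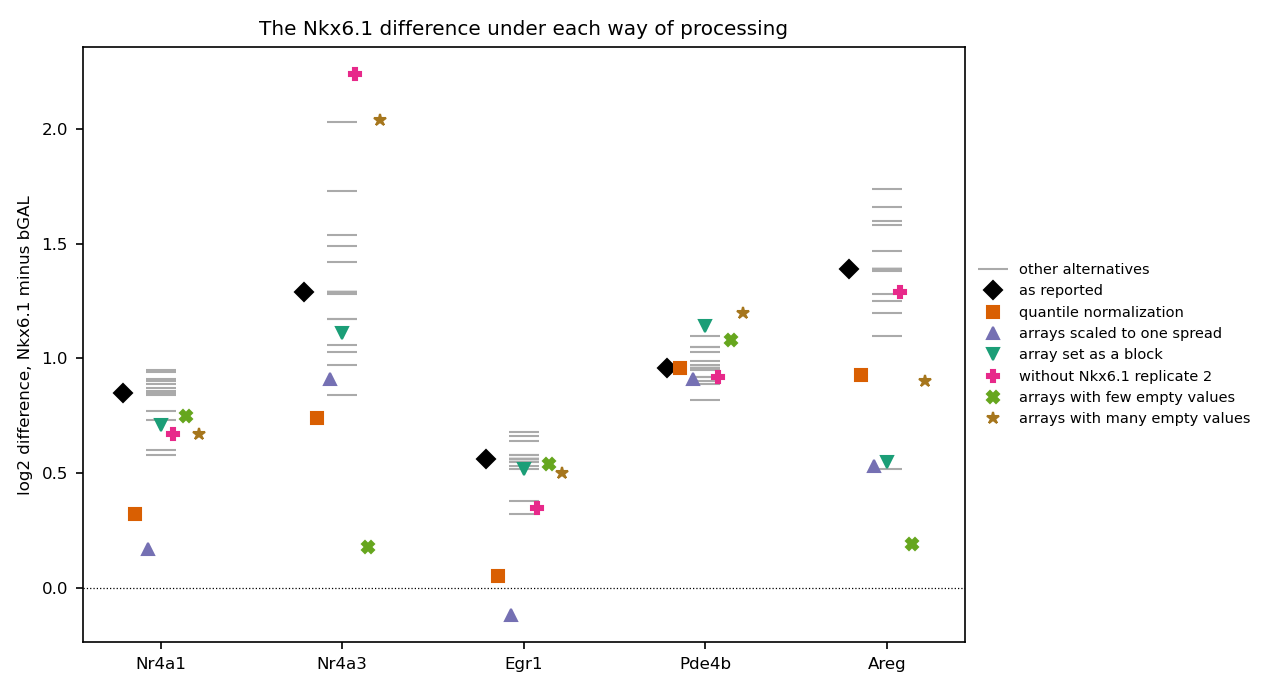
Log2 difference of Nkx6.1 minus bGAL for 5 members as reported (black diamonds) and under the alternative ways of processing. Pde4b (Rn30005294) stays between 0.82 and 1.20, Nr4a3 is 2.24 without Nkx6.1 2, and Nr4a1 and Egr1 are 0.17 and -0.12 when arrays are scaled to one spread.

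The genes around the members were taken as 6 lists of 116 genes, 74 of which were tested with 83 probes. Against bGAL, 2 probes rose and 0 fell in Nkx6.1 islets, where 0.640% of all probes passed, and 0 rose and 0 fell in Pdx1 islets, where 0.546% passed. Between Nkx6.1 and Pdx1 islets 1 was higher and 0 lower, where 0.217% of all probes passed. At an unadjusted p of 0.05 the limma counts were 19, 15 and 10 of the 83 probes, against 14.4%, 11.9% and 6.85% of all probes. The median differences over the 83 probes were 0.02, 0.05 and 0.02.

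Of the 27 other immediate early genes tested, Dusp1 and Id1 rose in Nkx6.1 islets, and the list medians were 0.27 for Nkx6.1 and 0.21 for Pdx1 against bGAL. Dusp1, a nuclear phosphatase that switches off MAP kinases, read -3.29 to -2.94 over the 5 Nkx6.1 arrays, -4.49 to -4.11 over the 3 Pdx1 arrays and -4.40 to -4.20 over the 5 bGAL arrays. Nkx6.1 arrays stood clear of both other groups, which overlapped. Separation above bGAL was seen in 3.25% of all probes. Its difference from bGAL was 1.20 (SE 0.163, 2.30-fold, limma adjusted p 0.00491) and from Pdx1 islets 1.21 (SE 0.188, 2.32-fold, adjusted p 0.0151). The first was no longer past the threshold in 7 of 27 alternatives, with values of 0.57 to 1.25 and adjusted p of 0.00109 to 0.613, and the second in 11 of 26 (1.12 to 2.19, adjusted p 1.11e-04 to 0.222).

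Id1, an inhibitor of basic helix-loop-helix factors, averaged -1.55 ± 0.382 in Nkx6.1 islets and -2.79 ± 0.413 in bGAL islets (SD, n = 5 each). The groups did not overlap, as in 3.25% of all probes in that direction, and the difference was 1.25 (SE 0.246, 2.37-fold, limma adjusted p 0.0410). The call was lost in 19 of 27 alternatives, between 0.66 and 1.33, with adjusted p of 0.0101 to 0.990. Leaving out any one of 10 of the arrays was enough to lose it. In Pdx1 islets the smallest p values were those of the phosphatase Dusp5 (1.41, adjusted p 0.0705), the transcription factor Klf2 (-0.99, 0.198) and the kinase Plk2 (1.20, 0.279). With array set as a block Klf2 was at -0.38 and Plk2 at 0.37. Without bGAL 4 both Dusp5 (adjusted p 0.0392) and Klf2 (0.0406) passed, and so did Dusp5 without Nkx6.1 2 (0.0421). Across the alternatives the range of adjusted p was 0.0129 to 0.941 for Dusp5 and 0.0300 to 1.00 for Klf2.

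Of 8 AP-1 partners, 3 were tested and 0 passed. Fosl1, a Fos family subunit, averaged -2.83 ± 0.335 in Nkx6.1 islets and -3.57 ± 0.125 in bGAL islets (SD, n = 5 each), with no overlap and a difference of 0.74 (SE 0.190, limma adjusted p 0.109). Such separation above bGAL was seen in 3.25% of all probes. The Fosl1 difference was 0.57 with array set as a block and ran from 0.19 to 0.94 over 27 alternatives. It passed in 1 of them (adjusted p 0.00703 to 0.954). Atf3, a stress-induced partner, differed by 0.68 (SE 0.239, adjusted p 0.222) and Maff by -0.04. Against bGAL, Pdx1 islets gave 0.14 for Fosl1 and 0.05 for Atf3.

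Among 13 genes tested of cAMP, CREB and calcium signalling, 0 passed and the 16 probes had a median of -0.14 for Nkx6.1 and 0.11 for Pdx1. At an unadjusted p of 0.05, 1 probe was higher and 3 were lower in Nkx6.1 than in bGAL islets. The higher one was the protein kinase A catalytic subunit Prkacb, at 0.73 (limma adjusted p 0.184). The lower ones were the adenylyl cyclases Adcy9, at -0.75 (adjusted p 0.292), and Adcy8, at -1.04 and -0.83 on its 2 tested probes (adjusted p 0.298 and 0.314). Adcy8 had 2 other probes with too few values for this test. They were at -0.01 and 0.10 in the 1 alternative that held them, so they did not show the decrease. With array set as a block Adcy9 was at -0.29. In Pdx1 islets Prkacb was at 0.66 (adjusted p 0.342), Adcy9 at -1.36 (adjusted p 0.155) and the regulatory subunit Prkar2b at 1.42 (adjusted p 0.0843). Without Nkx6.1 2 both Adcy9 (adjusted p 0.0319) and Prkar2b (0.0158) passed for Pdx1, and without bGAL 4 Prkar2b did (0.0437). The range of adjusted p across alternatives was 0.00800 to 1.00 for Adcy9 and 0.00162 to 0.955 for Prkar2b. Of 11 other phosphodiesterase genes, 0 passed, and the median of 15 probes was -0.32 for Nkx6.1 and -0.47 for Pdx1, where Pde4b was at 0.96 and 0.11. The smallest p values for Nkx6.1 were those of 3 probes of the calmodulin-dependent Pde1c, at -2.94, -2.58 and -2.27 (adjusted p 0.133, 0.158 and 0.193). The first probe read -0.02, 1.52, 1.79 and 1.34 on Nkx6.1 2 to 5, 0.85, 1.45 and 1.00 on Pdx1 1 to 3, and 5.17, 1.89 and 5.23 on bGAL 2, 4 and 5. The value on bGAL 4, the array with few empty values, was near those of the factor groups. With array set as a block the 3 probes were at -0.73, -0.45 and -1.11 for Nkx6.1 and -0.79, 0.38 and 0.21 for Pdx1. Without bGAL 4 the first was at -4.04 and passed for Nkx6.1 (adjusted p 0.00323), and at -4.10 for Pdx1 (0.00546), in ranges of 0.00323 to 0.990 and 0.00546 to 1.00, and the next probe passed for Nkx6.1 at -3.29 (0.0138, in a range of 0.0138 to 0.996).

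Of 10 EGF family genes tested beside Areg, 0 passed, and none had an unadjusted p under 0.05 by limma. Ereg (epiregulin) was at 0.72 and Btc (betacellulin) at 0.48 in Nkx6.1 against bGAL islets, with adjusted p of 0.407 and 0.490. Ereg was at 0.14 with array set as a block, and Btc at 0.20 without Nkx6.1 2. The list of Nr4a partners and genes placed downstream of Nr4a1 and Nr4a3 in beta cells had 10 genes tested and 0 past the threshold. Ube2c, a ubiquitin-conjugating enzyme of the anaphase-promoting complex, read -2.35, -2.95, -0.68, -0.84 and -1.63 on Nkx6.1 arrays, -1.30, -1.41 and -1.64 on Pdx1 arrays, and -4.44, -4.94, -3.24, -3.41 and -3.05 on bGAL arrays. Both factor groups lay wholly above bGAL islets, by 2.13 (SE 0.469, adjusted p 0.0659) and 2.37 (SE 0.542, adjusted p 0.0857). Of all probes, 3.25% lay wholly above bGAL in Nkx6.1 islets and 8.02% in Pdx1 islets. With array set as a block the Ube2c differences were 1.73 and 1.84 (limma adjusted p 0.570 and 0.996). Both passed without Nkx6.1 2 (0.0214 and 0.0315) and without bGAL 4 (0.0307 and 0.0426), in ranges of 0.00134 to 0.990 and 0.00234 to 1.00 over all alternatives. Skp2, which targets cell-cycle inhibitors for degradation, was at 0.69 (adjusted p 0.417), and at 0.38 without bGAL 5 and 0.45 without Nkx6.1 2. The retinoid receptor Rxrg, from a family that pairs with Nr4a1 and Nr4a2, was at -1.91 for Nkx6.1 (adjusted p 0.243) and -2.03 for Pdx1 (adjusted p 0.312). It read 4.00, 1.99 and 0.15 on bGAL 2, 3 and 4, so bGAL 4 was level with the factor groups, which read 0.00 to 0.36 and 0.00 to 0.06. With array set as a block the differences were -0.01 and -0.13. Without bGAL 2 they were -0.93 and -1.05, and without bGAL 4 they were -2.86 and -2.97 and passed (adjusted p 0.0135 and 0.0183, in ranges of 0.0135 to 0.999 and 0.0183 to 1.00).

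**Figure D4:**
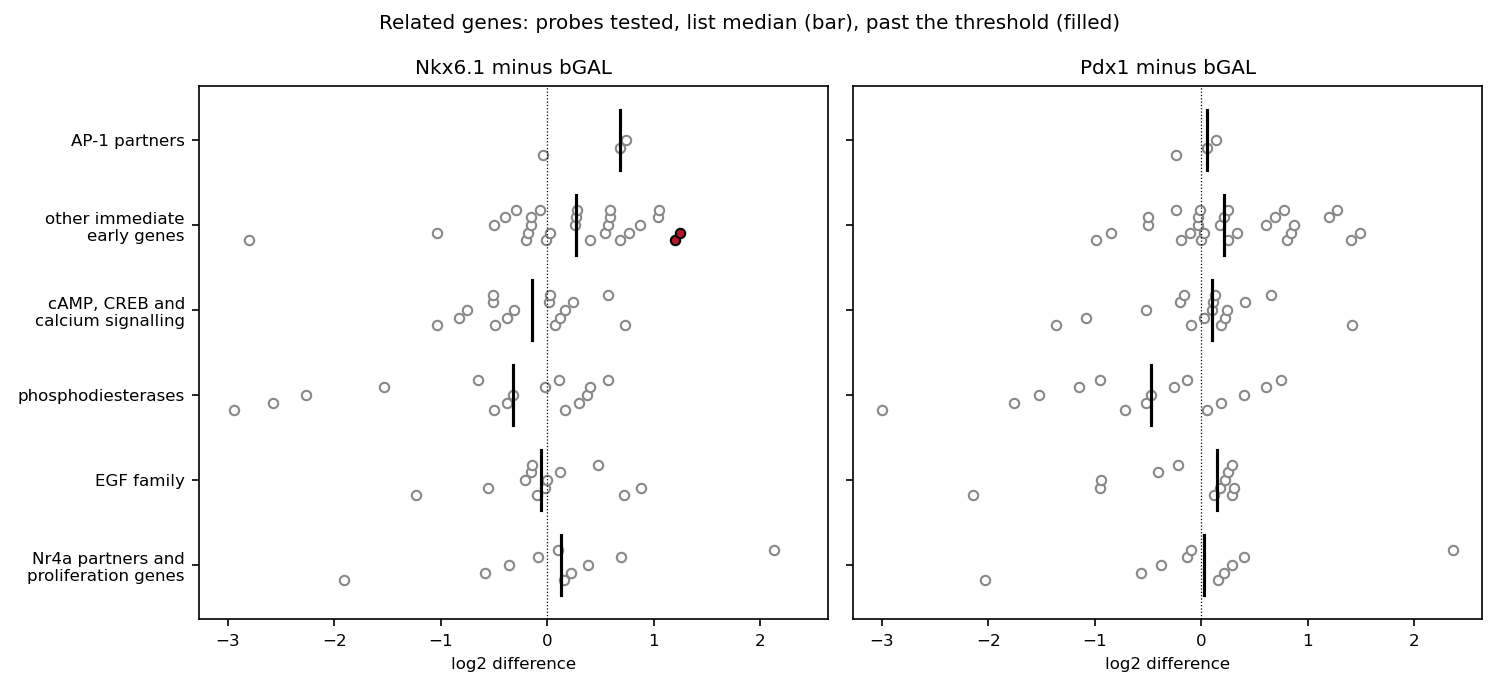
Log2 difference from bGAL of every tested probe in the 6 lists around the members, for Nkx6.1 and for Pdx1, with the list median as a bar. The filled points, past an adjusted p of 0.05, are Dusp1 at 1.20 and Id1 at 1.25 in Nkx6.1 islets.

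Markers of other cell types and of beta cells were read on the same arrays. The mean of the 4 beta-cell markers measured on every array was 4.64 to 7.39 on Nkx6.1 arrays, 4.99 to 5.63 on Pdx1 arrays and 4.40 to 5.20 on bGAL arrays. The 4 probes were 0.67 to 1.01 higher by mean in Nkx6.1 than in bGAL islets, with 0 of 4 past the threshold. Without Nkx6.1 2, Ins1 was 0.41, Ins2 0.40 and Iapp 0.11 higher by mean, and with array set as a block 0.37, 0.29 and 0.30. Under these same changes Slc2a2 moved less, from 0.78 with all arrays to 0.67 without Nkx6.1 2 and 0.61 with that block. Over all 27 alternatives it was not steadier, at 0.33 to 2.53. Ins1 ran from -0.14 to 2.38, Ins2 from -0.35 to 2.24 and Iapp from -0.08 to 2.14. Of 4 alpha, delta and PP cell markers tested, Hhex was past the threshold, at -1.65 in Nkx6.1 (limma adjusted p 0.00406) and 1.00 in Pdx1 islets against bGAL (adjusted p 0.123), while Sst was at -1.09 and -0.63, Gcg at 0.20 and -0.02 and Ppy at 0.01 and 0.37. Hhex, named after its values were seen, passed for Nkx6.1 in 23 of 27 alternatives (adjusted p 0.00123 to 0.750) and missed with array set as a block (-1.54, 0.0691). For Pdx1 it passed without Nkx6.1 2 (0.0302, in a range of 0.0132 to 0.886). Of the 4 alpha, delta and PP cell probes, 1 was lower in Nkx6.1 than in Pdx1 islets past the threshold and 0 were higher, where 0.217% of all probes passed. Macrophage and leukocyte markers averaged -1.22 to -0.60 on Nkx6.1 arrays, -1.24 to -0.86 on Pdx1 arrays and -0.86 to -0.51 on bGAL arrays, and fibroblast markers -2.45 to -1.19, -1.89 to -0.99 and -1.72 to -0.69 in the same order of groups. In that order duct markers averaged -0.21 to 0.65, -0.72 to -0.44 and -0.34 to 0.31, and acinar markers -1.93 to -0.69, -1.69 to -1.45 and -1.83 to -1.37. The 3 duct probes had a median of 1.14 for Nkx6.1 minus Pdx1, with 0 past the threshold. By limma, 2 of the 3 had an unadjusted p under 0.05, where 6.85% of all probes did. The part of cell makeup in the member differences was not tested.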

How the data were processed

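The authors amplified 500 ng of islet RNA in 2 rounds, labelled it with Cy5 and hybridized it with Cy3-labelled rat reference RNA to spotted 27K oligonucleotide arrays, per the labels' protocols. As deposited, a value is a log2 ratio, islet over reference, and each array is centred near 0. The base of the log was inferred from the values, and the direction follows the dyes. How background was corrected, how arrays were normalized and why some values are empty is not stated in the labels. Precision is limited by the number of arrays.

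Of 26962 probes that are not controls, 15807 carried 1 symbol and 11155 none. Of the symbols, 12034 were current, 3722 were updated through RefSeq and 51 were unmatched. A probe needed at least 2 values per group, which left 17965, tested with limma 3.58.1 in R 4.3.3 (statmod 1.5.0), as 1 model with 3 groups over 13 arrays and no variance trend. Tests were two-sided with Benjamini-Hochberg adjustment over all probes tested and a threshold of 0.05. The procedure was tested on simulated data. Arrays with over 30% empty values formed the array set with many empty values, which was defined from the data. Tables and figures were made with pandas 2.3.3 and matplotlib 3.10.9.

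All members are described. From each list, genes past the threshold are named, and otherwise up to 3 with the smallest p, and the 3 probes most like each Nr4a gene by Pearson r. The marker Hhex falls outside that rule and was chosen after its values were seen, and the alternatives were extended to list genes and markers after seeing the data. The members, lists and alternatives were chosen with earlier results of these data known, so the lists are not independent evidence. No probe positions were used here. Alternatives covered scaling, filters, variance models, array weights, blocks, subsets of arrays and leaving out each array.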

Additional observations from a re-analysis of the deposited data

Results flagged for a closer look

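Over 20 member groups of 4 or 5 arrays, 3 had an array far from the others, where chance gives about 1 in 20. Nr4a1 on Nkx6.1 2 was the highest of its group, at -2.49, and Nr4a3 on the same array was the lowest, at -6.86. Nr4a2 on bGAL 5 was the lowest bGAL value, at -0.80. A difference between the factors was past the threshold for Dusp1, whose change from bGAL was 1.21 larger in Nkx6.1 than in Pdx1 islets (limma adjusted p 0.0151).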

How the results depend on the processing

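The 10 member probes had 30 differences and 783 values under 27 alternatives. Of these 721 kept their direction and their side of the threshold, 12 went past the threshold in the same direction and 50 changed sign, and 17 of the 30 differences had no change of sign. These counts include alternatives that cannot move a difference, such as leaving out an array of a group not compared, so they overstate stability. Causes were not tested. Changes of sign for Nkx6.1 minus bGAL came in Egr1 with one spread (-0.12), in Fosb with values near 0 removed (0.01) and in few-empty arrays (0.58), with -0.45 to 0.04 on leaving out an array, and in Junb with the set block (0.28), that block without Nkx6.1 2 (0.02) and few-empty arrays (0.28). Crem Rn30013685 turned with quantile normalization (0.06), the set block (0.06), that block without Nkx6.1 2 (0.30) and many-empty arrays (0.68), with -0.53 to 0.15 on leaving out an array. For Pdx1 minus bGAL, quantile normalization and one spread turned Nr4a1 (-0.57 and -1.24), Egr1 (-0.61 and -1.27) and Fosb (0.34 and 0.24), and one spread turned Areg (-0.34). Fosb also turned with the set block without Nkx6.1 2 (0.10), few-empty arrays (0.53) and leaving out an array (-0.24 to 0.13), Junb with both blocks (0.01 each) and few-empty arrays (0.01), and Pde4b on leaving out an array (-0.02 to 0.24). For Nkx6.1 minus Pdx1, Nr4a3 turned with quantile normalization (0.18), one spread (0.77), array weights (0.92), the set block without Nkx6.1 2 (1.00) and leaving out an array (-0.50 to 0.77). Areg turned with quantile normalization (0.26), one spread (0.86), weights (0.10), the set block (0.23), that block without Nkx6.1 2 (0.19), few-empty arrays (0.16) and leaving out an array (-0.25 to 0.27), and Fosb with values near 0 removed (0.06), the replicate block (0.09), few-empty arrays (0.06) and leaving out an array (-0.40 to 0.06).

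Counts of all probes past the threshold moved more. For Nkx6.1 minus bGAL, 115 became 46 with quantile normalization, 49 with one spread, 66 with a variance trend, 1068 with array weights, 26 with only those groups, 13 with the set block, 0 in few-empty and 0 in many-empty arrays (1 arm is a single array in each, so these say little), and 39 to 595 on leaving out an array (595 without bGAL 4, 233 without Nkx6.1 2). For Pdx1 minus bGAL, 98 became 57 with a trend, 1673 with weights, 21 with the set block, 3 in few-empty arrays and 16 to 432 on leaving out an array (432 without bGAL 4, 16 without Pdx1 2). For Nkx6.1 minus Pdx1, 39 became 96 with quantile normalization, 107 with one spread, 636 with weights, 89 with the set block without Nkx6.1 2, and 14 to 81 on leaving out an array (81 without Nkx6.1 2, 14 without Pdx1 2). The share of higher calls was 64.3% for Nkx6.1 minus bGAL, 52.2% with quantile normalization and 53.1% with one spread. It was 80.6%, 70.0% and 62.2% for Pdx1 minus bGAL, and 10.3%, 17.7% and 29.0% for Nkx6.1 minus Pdx1. Array weights gave 39.9%, 36.5% and 48.7%, and leaving out bGAL 4 gave 33.8% and 31.7% against bGAL, so most calls against bGAL were then lower. Member probes past the threshold, 0 as reported, were 1 for Nkx6.1 minus bGAL with only probes on all arrays, 1 with a minimum of 1 value, 1 with a trend, 3 with weights and 0 to 2 on leaving out an array (2 without bGAL 4, 1 without Nkx6.1 2). With weights they were 2 for Pdx1 minus bGAL and 1 for Nkx6.1 minus Pdx1.

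Whether same-numbered arrays shared an islet isolation is not settled by the values, and the main model did not pair them. Same-numbered arrays had correlations of their deviations from -0.239 to 0.475, and 2 of 5, 1 of 3 and 0 of 3 arrays correlated best with their own number (Nkx6.1 with bGAL, Pdx1 with bGAL, Nkx6.1 with Pdx1). With the replicate block 21, 22 and 19 probes passed in the 3 comparisons, and no member probe did.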
